A study of Mus musculus with 8 samples.

Results

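The genes described here encode the heat shock proteins of the cytosol, the co-chaperones that steer them, the heat shock factors that control their transcription and the subunits of the cytosolic chaperonin. They were taken by name from a list of 40 symbols, which was chosen with earlier results of these data known. All 40 had a row among the 55414 genes of the deposited table. Of these, 37 had enough counts to be tested. Although the set is mainly cytosolic, Hspa9, Hspd1, Hspe1 and Trap1 encode chaperones of mitochondria and are described as a group of their own. RNA came from N2a cells, a mouse neuroblastoma line, and the question was which transcripts change when the stress-responsive vesicle protein neurensin-2 is overexpressed. There were 4 libraries of control cells and 4 of cells transiently transfected with an Nrsn2 construct, and both groups carry a collection time of 24 hours after transfection. The labels do not say whether control cells received reagent or an empty vector, nor whether replicates were separate cultures, so each p-value reflects only how far these libraries spread, which may be technical. Levels are CPM, counts scaled to a common library size with TMM factors, and a call is an adjusted p under 0.05 in edgeR's quasi-likelihood test across all genes.

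Chaperones bind unfolded stretches of other proteins and let them fold or pass them on. HSP70 works in a cycle of ATP hydrolysis that J-proteins start and that exchange factors, among them the HSP110 and BAG proteins, reset; the adaptor Stip1 then hands clients to HSP90, and the ring-shaped chaperonin CCT, also called TRiC, folds actin and tubulin. In the heat shock response, unfolded protein frees the transcription factor HSF1, which binds heat shock elements, runs of inverted GAA units, in promoters of inducible genes such as Hspa1a, Hspa1b, Hsph1, Dnajb1, Bag3 and Hsp90aa1.

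Library totals ran from 15347255 to 21395096 counts, of which the 40 genes took 2.62 to 2.92%. Nrsn2 lay between 6.54 and 10.6 CPM in the control libraries and between 147 and 173 CPM in the overexpression libraries (log2 fold change 4.23 ± 0.11 SE, edgeR adjusted p = 2.89e-15). Of 12 sympathoadrenal and neuroblastoma markers, 11 were at or above 1 CPM, and their summed level was 1810 to 2010 CPM in control and 1210 to 1430 CPM in overexpression libraries. That sum rested mainly on Chgb (mean 1070 in control and 630 CPM with overexpression) and Stmn2 (421 and 301 CPM), while Gata2 (79.9 and 116 CPM), Gata3 (12 and 16.8 CPM) and Chga (50.2 and 58.6 CPM) had higher means with overexpression. Summed markers of fibroblasts reached at most 9.12 CPM, those of glia 3.07 CPM and those of macrophages 2.62 CPM in any library; the macrophage sum was 0.868 to 1.41 CPM in control and 1.77 to 2.62 CPM with overexpression. Overexpression library 1 stood apart from the other 3 for many chaperone genes. It held the lowest level of the 8 libraries for 12 of the 37 tested genes, though control library 4 did so for 13. The mitochondrial genome took 4.66% of counts in overexpression library 1, above the 3.38 to 3.75% of the other overexpression libraries. Results that rest on overexpression library 1 are given with and without it.

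Of the 37 tested genes, 5 were higher and 6 lower with overexpression, while 35.4% of all 15187 tested genes were called. Neither direction exceeded that background, with 13.5% higher against 18.6% of all genes and 16.2% lower against 16.8%. Among the 410 genes at or above the median level of the set, 42.4% were called, and 6 of the 19 chaperone genes there were. In RNA from whole cultures, a change in some cells and a smaller change in all of them cannot be told apart. The median log2 fold change of the 37 was 0.05, beside -0.001 over all genes. Bag3, Cdc37, Hspa8, Stub1 and Bag5 rose, and Hsp90aa1, Hspa4l, Hspa4, Stip1, Dnaja1 and Tcp1 fell. The fold changes of called genes were small, from -0.46 to 0.87 on the log2 scale. The groups did not overlap for 5 genes that were higher and 5 that were lower, where 17.2% and 15.4% of all tested genes had such a pattern in each direction. The first 4 of the genes that rose and the first 4 that fell stayed called under each of the 13 alternative ways of processing, and Bag5, Dnaja1 and Tcp1 did not. In the authors' deposited table, which was computed from the same counts, Hspa1a, Hspa1b and Hspb1 had no value. Of the other 37 genes, 5 were higher and 7 lower at its looser adjusted p threshold of 0.1. These included each of the 11 called here, and the additional gene was Hspe1. The share of all genes at that threshold was not computed, so these counts have no background beside them.

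**Figure D1:**
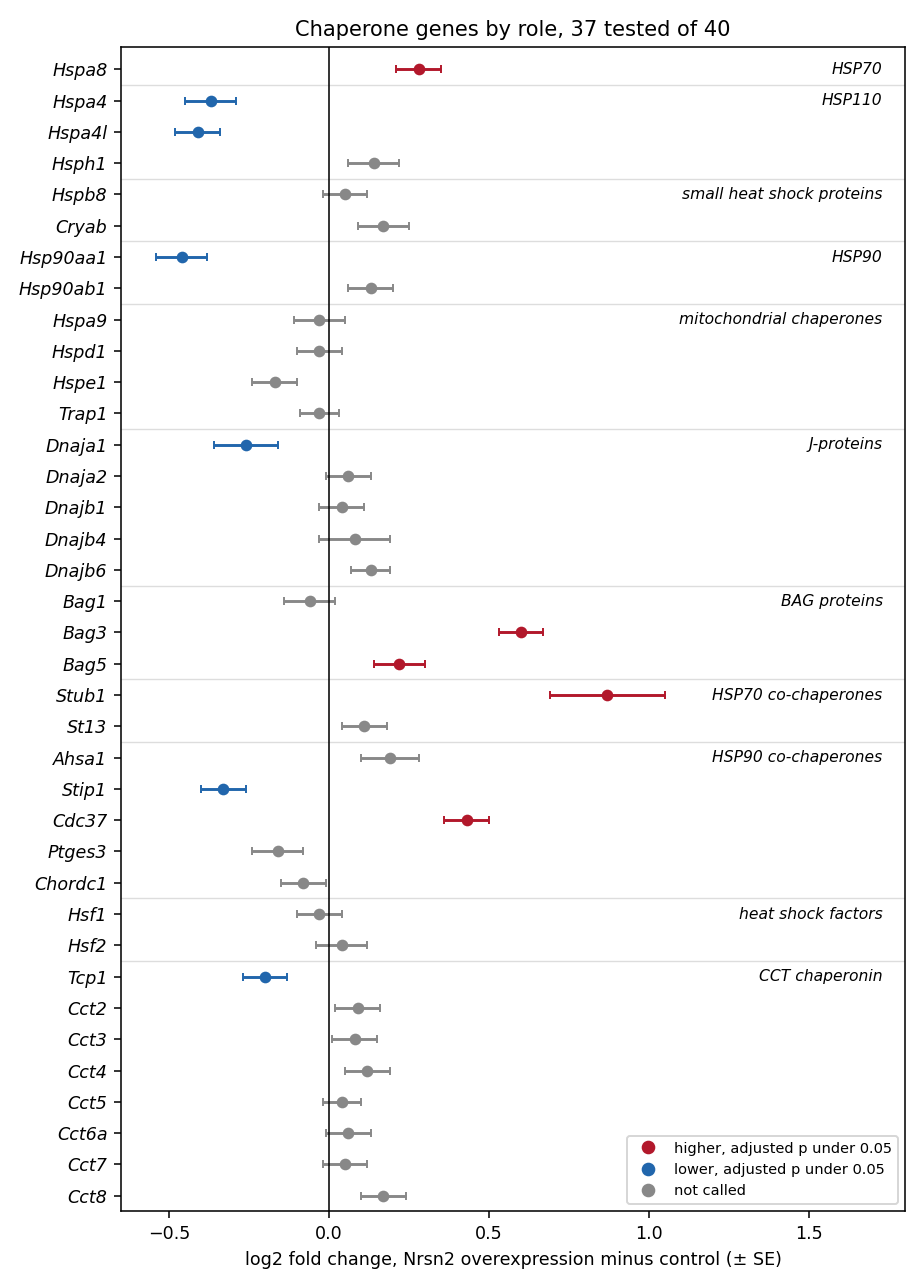
Log2 fold change (Nrsn2 overexpression minus control, horizontal axis) of the 37 tested genes, grouped by role on the vertical axis, with bars for the standard error. The 5 higher and 6 lower genes are spread over 8 of the roles, and Stub1 has the largest value and also the widest error.

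Heat shock elements were searched in RefSeq promoter windows of GRCm38.p6, from 250 bases before to 50 after a transcription start, which were at hand for 32 of the 40 genes. No window was at hand for Hspa8, Hsp90aa1, Hsp90ab1, Hspa9, Hsf1, Cryab, St13 and Cct4. Whether these genes carry an element was therefore not searched. A 3-unit element, GAANNTTC followed by NNGAA or its reverse complement, TTCNNGAA followed by NNTTC, was present in 5 of these 32 genes (15.6%) and in 0.662% of the 27025 genes with a window. The elements of these genes are shown because they are the longest matches in the set, beside the windows of the textbook inducible genes Hspa1a and Hspa1b, with the GAA and TTC units and the bases between them in capitals.
Hspe1: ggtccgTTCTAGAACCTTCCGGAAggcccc
Hspd1: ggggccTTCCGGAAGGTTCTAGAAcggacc
Dnajb6: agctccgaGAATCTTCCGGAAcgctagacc
Hsph1: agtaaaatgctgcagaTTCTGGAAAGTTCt
Chordc1: ccgGAACGTTCGGGAAAATTCCTGAAgcag
Hspa1a: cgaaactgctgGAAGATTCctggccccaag
Hspa1b: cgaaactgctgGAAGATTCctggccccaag
Hspe1 and Hspd1 lie head to head, and the same 30 bases, chr1:55088053-55088082, hold a 4-unit match on the plus strand in the window of Hspe1 and, read on the minus strand, in that of Hspd1. The Dnajb6 element is at chr5:29735844-29735873 on the plus strand, that of Hsph1 at chr5:149636287-149636316 on the minus strand, inside the transcript 37 bases from its start, and that of Chordc1, with 5 units across the start site, at chr9:18292260-18292289 on the plus strand. Hspa1a (chr17:34972242-34972271) and Hspa1b (chr17:34959324-34959353), both on the minus strand, held no 3-unit match and carry an identical 2-unit element, GAANNTTC, that starts 104 bases before the start site. The 2-unit form GAANNTTC, which overlaps the longer one, was in 13 of the 32 genes and in 9.04% of all genes, and TTCNNGAA in 9 of the 32 and in 9.6%.

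Of the 5 genes with a 3-unit element, 0 were called by edgeR or by DESeq2. At an unadjusted p under 0.05, for which the share of all genes was not computed, 1 was higher and 1 lower. Their log2 fold changes were -0.03 for Hspd1, -0.17 for Hspe1, 0.13 for Dnajb6, 0.14 for Hsph1 and -0.08 for Chordc1. Among the 61 tested genes of the whole table whose window held a 3-unit element, 14 were higher and 9 lower (37.7% called), with a median of 0.06. Of the genes with a GAANNTTC match, 10 were tested, and Bag3 and Stub1 were higher and Dnaja1 lower, where 37.1% of the 730 tested genes with this match were called. Of the 9 tested genes with TTCNNGAA, Cdc37 was higher and 0 were lower, where 31.6% of 858 such genes were called.

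Neither heat shock factor gene was called. Hsf1, the main activator of the heat shock response (ENSMUSG00000022556; GRCm39 chromosome 15, 76361622 to 76386113, plus strand), held 83.5, 83.1, 83.2 and 85.7 CPM in control libraries 1 to 4. It held 72.0, 90.4, 79.3 and 85.8 CPM in overexpression libraries 1 to 4. The overexpression values lie on both sides of the narrow control range, and the log2 fold change was -0.03 ± 0.07 (SE, edgeR adjusted p = 0.739). Hsf2, a second heat shock factor with roles in development, had a log2 fold change of 0.04 ± 0.08. In this pair 0 genes were called by edgeR or DESeq2, also at an unadjusted p under 0.05. Beside this, edgeR called 35.4% of all tested genes in either direction at an adjusted p under 0.05.

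The stress-inducible HSP70 genes were nearly silent. Hspa1a, the textbook heat-induced HSP70, had 0 counts in all 4 control libraries and 1, 2, 0 and 0 counts in overexpression libraries 1 to 4. Its near-identical neighbour Hspa1b had 1, 0, 0 and 2 counts in the control libraries and 3, 1, 0 and 0 with overexpression. Hspb1, which encodes the small heat shock protein HSP25, had 0 counts in all 8 libraries. These levels are at or under 3 counts per library in both groups, so no fold change can be given and no difference was detectable at this depth. The 3 genes share 50-base stretches with other transcripts of GENCODE M21, 66.3% of those of Hspa1a, 62.3% of Hspa1b and 51.6% of Hspb1, and how reads with several matches were counted is not given in the sources used here. The ratio of inducible to constitutive HSP70 counts, planned as a comparison, could not be computed because the inducible genes were at 0 in several libraries.

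The constitutive HSP70 gene rose. Hspa8, which encodes HSC70, the housekeeping HSP70 of the cytosol (ENSMUSG00000015656; chromosome 9, 40712280 to 40721383, plus strand), held 1730, 1810, 1880 and 1690 CPM in control libraries 1 to 4. It held 2120, 2100, 2200 and 2200 CPM in overexpression libraries 1 to 4. All 4 overexpression libraries were above all control libraries, with means of 1780 ± 82.8 and 2150 ± 52.6 CPM (SD, n = 4 each). On the log2 scale the rise was 0.28 ± 0.07 (SE, edgeR adjusted p = 0.00362). Hspa8 shares 52.7% of its 50-base stretches with other genes, chiefly the processed pseudogene Gm15459, which held 33.2% as many counts and had a log2 fold change of 0.16 (edgeR adjusted p = 0.188). With both summed, an alternative chosen after seeing the data, the log2 fold change was 0.25 (edgeR adjusted p = 0.0100).

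The HSP110 proteins, large relatives of HSP70 that act as its nucleotide exchange factors, had 2 of 3 genes called, both lower, where 16.8% of all tested genes were lower. Hspa4 (ENSMUSG00000020361; chromosome 11, 53150641 to 53191284, minus strand) held 1530, 1410, 1450 and 1360 CPM in the control libraries. With overexpression it held 972, 1100, 1210 and 1170 CPM. Every overexpression library lay below every control library, and the log2 fold change was -0.37 ± 0.08 (SE, edgeR adjusted p = 0.00118).

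Hspa4l, a relative of Hspa4 best known from mouse testis (ENSMUSG00000025757; chromosome 3, 40699814 to 40750538, plus strand), held 419, 366, 392 and 379 CPM in control libraries and 313, 276, 283 and 299 CPM with overexpression. Here too the groups did not overlap; the log2 fold change was -0.41 ± 0.07 (SE, edgeR adjusted p = 1.24e-04). Hsph1, the stress-inducible HSP110, held 891, 855, 846 and 721 CPM in control libraries and 770, 935, 976 and 958 CPM with overexpression. Overexpression library 1 lay within the control range and the other 3 above it, and Hsph1 was not called (log2 fold change 0.14, edgeR adjusted p = 0.217). Without overexpression library 1 it was called higher (0.21, edgeR adjusted p = 0.0273). Hspa4 and Hspa4l shared under 1% of 50-base stretches with other genes (0% and 0.447%).

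Of the cytosolic HSP90 genes, the inducible form fell. Hsp90aa1, the stress-inducible HSP90 alpha (ENSMUSG00000021270; chromosome 12, 110657039 to 110669162, minus strand), held 2290, 2000, 2260 and 1880 CPM in control libraries 1 to 4. It held 1420, 1420, 1620 and 1690 CPM in overexpression libraries 1 to 4. The highest overexpression library was below the lowest control library, and the group means of 2110 ± 197 and 1540 ± 136 CPM (SD, n = 4 each) differed by -0.46 ± 0.08 on the log2 scale (SE, edgeR adjusted p = 3.83e-04). The gene shares 58.5% of its 50-base stretches with other genes, chiefly the processed pseudogene Gm12346, which held under 2% as many counts; summed with it, the fold change was the same, -0.46.

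Hsp90ab1, the constitutive HSP90 beta and the most abundant of these transcripts, held 6080, 6460, 6210 and 6250 CPM in control libraries. With overexpression it held 6250, 7040, 7080 and 7010 CPM. Library 1 sat within the control range and the other 3 above it, and the gene was not called (log2 fold change 0.13 ± 0.07 SE, edgeR adjusted p = 0.181), but it was called higher without overexpression library 1 (0.17, edgeR adjusted p = 0.0447).

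The ratio of Hsp90aa1 to Hsp90ab1 counts within a library does not depend on scaling between libraries. It was 0.376, 0.310, 0.364 and 0.301 in the control libraries and 0.227, 0.202, 0.229 and 0.240 with overexpression. Every overexpression library thus had a lower ratio than every control library, by 0.59 on the log2 scale (a log2 difference of -0.59). The two-sided exact permutation p was 0.0286, the smallest that the 70 arrangements of 8 libraries allow. After adjustment over the 2 ratios that could be computed the exact permutation p was 0.0571.

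**Figure D2:**
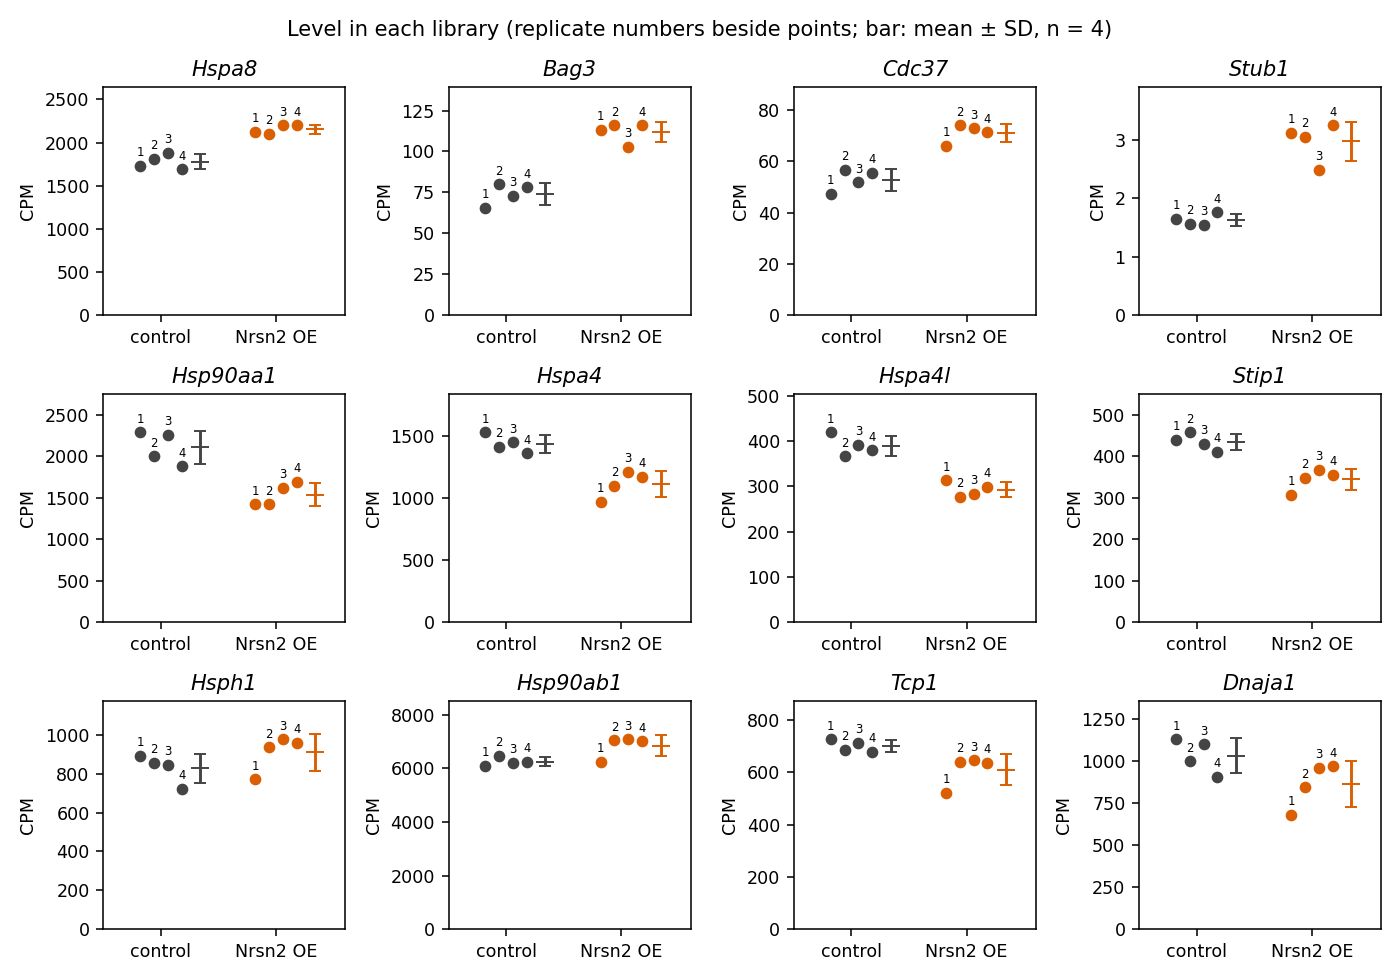
Level in CPM (vertical axes, from 0) in each library for 12 genes, control in grey and Nrsn2 overexpression in orange, with replicate numbers beside the points and the mean ± SD (n = 4) beside each group. In the upper rows the groups do not overlap, and in the lowest row they overlap for each gene but Tcp1. In that row overexpression library 1 lies below the other 3, as at 6250 CPM of Hsp90ab1 and 521 CPM of Tcp1.

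Of 5 HSP90 co-chaperone genes 1 was called higher and 1 lower (20% each), close to the 18.6% and 16.8% of all tested genes. Cdc37, which brings protein kinases to HSP90 (ENSMUSG00000019471; chromosome 9, 21044518 to 21061278, minus strand), held 47.3, 56.6, 51.7 and 55.4 CPM in control libraries and 66.0, 74.0, 72.8 and 71.2 CPM with overexpression. All overexpression libraries were above all control libraries (log2 fold change 0.43 ± 0.07 SE, edgeR adjusted p = 1.86e-04). Stip1, or HOP, which links HSP70 and HSP90 (ENSMUSG00000024966; chromosome 19, 6998070 to 7017335, minus strand), held 440, 458, 431 and 410 CPM in control libraries. With overexpression it held 308, 348, 368 and 355 CPM. Its groups did not overlap either, in the opposite direction (-0.33 ± 0.07 SE, edgeR adjusted p = 9.32e-04).

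The other HSP90 co-chaperones were not called with all libraries. Ahsa1, which stimulates the HSP90 ATPase, held 152, 163, 155 and 136 CPM in control libraries and 134, 186, 183 and 188 CPM with overexpression, so that overexpression library 1 was the lowest of all 8 and the other 3 the highest. Its log2 fold change was 0.19 with all libraries (edgeR adjusted p = 0.115) and 0.29 without overexpression library 1 (edgeR adjusted p = 0.00184). Ptges3, or p23, which stabilizes the closed HSP90 dimer, had a log2 fold change of -0.16 ± 0.08, and Chordc1, an HSP90-binding zinc protein, -0.08 ± 0.07.

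Among the BAG proteins, exchange factors that release HSP70 clients, Bag3 rose most. Bag3, which directs HSP70 clients to selective autophagy (ENSMUSG00000030847; chromosome 7, 128125340 to 128148705, plus strand), held 65.4, 79.9, 72.8 and 78.1 CPM in control libraries 1 to 4. It held 113, 116, 103 and 116 CPM in overexpression libraries 1 to 4. The lowest overexpression library was above the highest control library, overexpression library 1 was among the high ones, and the fold change was 1.51-fold (0.60 ± 0.07 on the log2 scale, SE; edgeR adjusted p = 7.64e-06). Bag5, a BAG protein with several BAG domains, held 33.3, 33.8, 36.4 and 32.2 CPM in control libraries and 33.6, 41.6, 43.0 and 39.7 CPM with overexpression. It was called higher (0.22 ± 0.08 SE, edgeR adjusted p = 0.0468), but overexpression library 1 lay inside the control range, and the call held in 3 of 13 alternatives. Among the fits that leave out 1 library it held without control library 3 or overexpression library 1, and in the other 6 the edgeR adjusted p was 0.0880 to 0.151. Bag1 had a log2 fold change of -0.06 ± 0.08 and was not called.

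Of the HSP70 co-chaperones, Stub1 rose from a low level. Stub1, or CHIP, the ubiquitin ligase that marks chaperone clients for degradation (ENSMUSG00000039615; chromosome 17, 26049479 to 26052378, minus strand), held 1.65, 1.56, 1.54 and 1.76 CPM in control libraries and 3.12, 3.05, 2.49 and 3.25 CPM with overexpression. The groups did not overlap, and the log2 fold change was 0.87 ± 0.18 (SE, edgeR adjusted p = 0.00135). The value rests on few reads, at least 23 in a library. The gene overlaps Jmjd8 on the opposite strand, with which it shares 33% of its 50-base stretches. Reads from these shared stretches cannot be told apart, since the library kit leaves strand unmarked. How such reads were counted is not given in the sources used here. St13, or HIP, which slows the release of ADP from HSP70, had a log2 fold change of 0.11 ± 0.07 and was not called.

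J-proteins, which bring clients to HSP70 and start its ATP hydrolysis, had 1 gene called lower of 5 tested (20%), where 16.8% of all tested genes were. Dnaja1, a farnesylated cytosolic J-protein, held 1130, 1000, 1100 and 905 CPM in control libraries. With overexpression it held 682, 844, 962 and 970 CPM. The groups overlapped, with the lowest value in overexpression library 1, and the call of a lower level (-0.26 ± 0.10 SE, edgeR adjusted p = 0.0466) was lost without that library (-0.16, edgeR adjusted p = 0.119). It was likewise lost without control library 1 (-0.22, 0.130), 2 (-0.28, 0.0694) or 3 (-0.23, 0.121) or overexpression library 2 (-0.25, 0.0983), where the second value is the edgeR adjusted p. Dnaja1 overlaps Smu1 on the opposite strand, which held 15.6% as many counts. Dnajb1, the HSP40 that HSF1 induces and that feeds back on HSF1, had a log2 fold change of 0.04 ± 0.07, Dnaja2 of 0.06 ± 0.07, Dnajb4 of 0.08 ± 0.11 and Dnajb6, a suppressor of aggregation, of 0.13 ± 0.06.

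Of the small heat shock proteins, which hold unfolded proteins without using ATP, Hspb8, the partner of Bag3 in selective autophagy, had a log2 fold change of 0.05 ± 0.07. Cryab, alpha B-crystallin, held 15.8 to 17.6 CPM in control and 18.1 to 19.5 CPM in overexpression libraries. The groups did not overlap, but the difference was small and not called (0.17 ± 0.08 SE, edgeR adjusted p = 0.123). In this class 0 of 2 tested genes were called by edgeR or DESeq2, also at an unadjusted p under 0.05. Beside this, edgeR called 35.4% of all tested genes in either direction at an adjusted p under 0.05.

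No mitochondrial chaperone passed the test. Hspa9, the HSP70 of the mitochondrial matrix, and Hspd1, or HSP60, both had a log2 fold change of -0.03, as did Trap1, the mitochondrial HSP90, and Hspe1, the HSP10 lid of HSP60, had -0.17 ± 0.07 (SE, edgeR adjusted p = 0.0758). In this class 0 of 4 were called by edgeR or DESeq2, where edgeR called 35.4% of all tested genes in either direction. Hspe1 alone was lower at an unadjusted p under 0.05. Hspe1 was called lower without control library 1 (-0.21, edgeR adjusted p = 0.0457) or 4 (-0.21, edgeR adjusted p = 0.0451); over all 13 alternatives its adjusted p ran from 0.00217 to 0.288. The ratio of Hspe1 to Hspd1 counts was 0.147, 0.169, 0.189 and 0.169 in control libraries and 0.167, 0.145, 0.156 and 0.146 with overexpression. These genes overlap on opposite strands, and Hspd1 held 625% as many counts as Hspe1. The ratios of the groups overlapped (two-sided exact permutation p = 0.143, also 0.143 after adjustment over the 2 ratios). In the same libraries the mitochondrial genome took 4.81 to 5.65% of counts in control and 3.38 to 4.66% with overexpression.

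The CCT chaperonin is a double ring in which each of 8 different subunits has a fixed place. Transcripts of 7 subunits had small positive log2 fold changes, from 0.04 for Cct5 to 0.17 for Cct8, with 0.05 for Cct7, 0.06 for Cct6a, 0.08 for Cct3, 0.09 for Cct2 and 0.12 for Cct4 between them. None of the 7 was called by edgeR or DESeq2, and Cct8 alone was higher at an unadjusted p under 0.05. Of all 15187 tested genes, 7577 had a positive log2 fold change. By edgeR 18.6% of them were called higher and 16.8% lower. Tcp1, the alpha subunit (ENSMUSG00000068039; chromosome 17, 13134588 to 13143954, plus strand), differed in sign.

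Tcp1 held 726, 686, 714 and 677 CPM in control libraries and 521, 640, 646 and 635 CPM with overexpression. All overexpression values were below all control values, lowest in library 1, and Tcp1 was called lower (-0.20 ± 0.07 SE, edgeR adjusted p = 0.0403). The call was lost without overexpression library 1 (-0.13, 0.0953) or 4 (-0.22, 0.0559) or control library 1 (-0.18, 0.0879), 2 (-0.21, 0.0634) or 3 (-0.19, 0.0906), where the second value is the edgeR adjusted p. Whether Tcp1 differed from the other subunits was not tested. Tcp1 overlaps Mrpl18 and Acat3 on the opposite strand, Cct6a overlaps Psph, and Cct8 overlaps Usp16, with 12.8%, 13.2% and 28.2% as many counts in Mrpl18, Psph and Usp16.

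**Figure D3:**
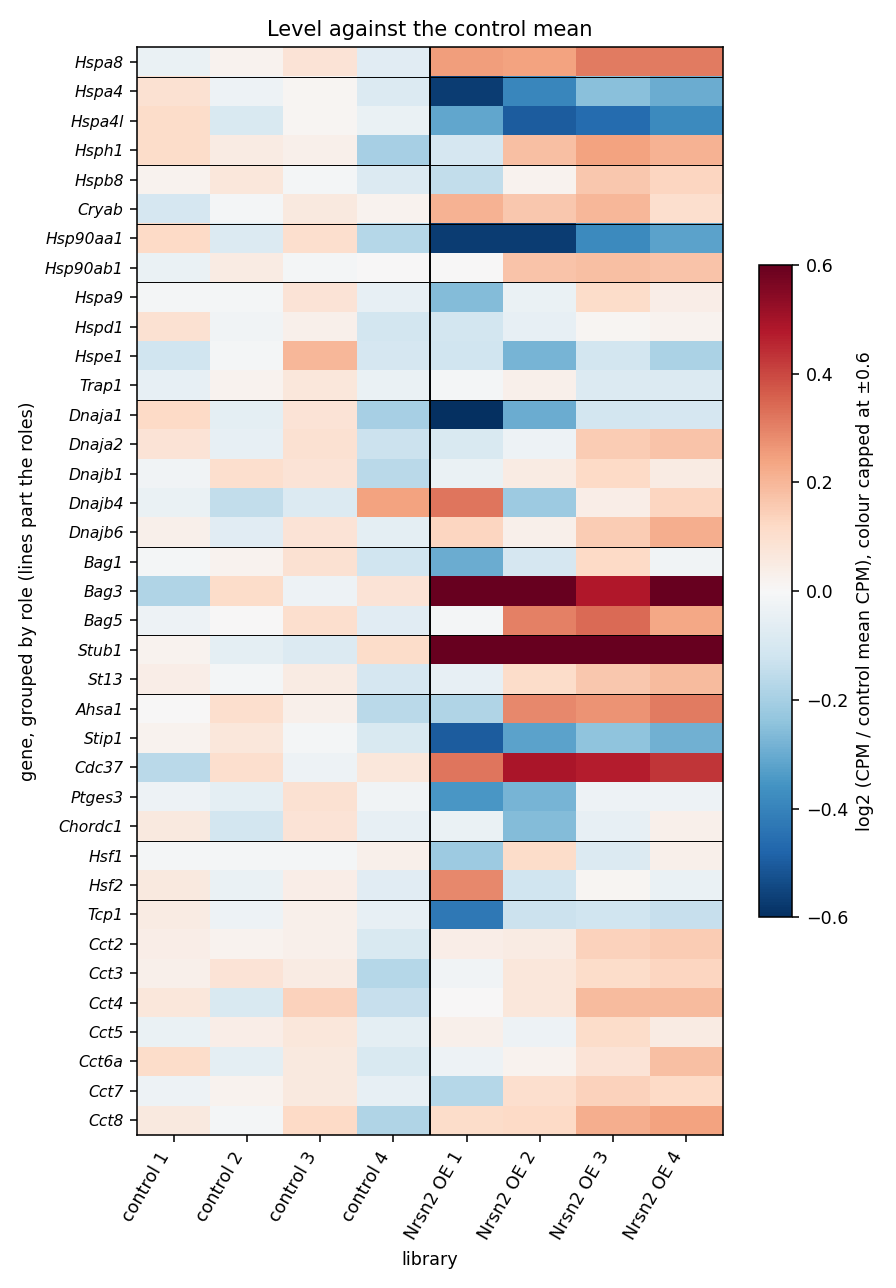
Log2 ratio of each library's CPM to the control mean for the 37 tested genes (rows, grouped by role) in the 8 libraries (columns), with the colour scale capped at ±0.6. Hspa8, Bag3, Stub1 and Cdc37 are above and Hspa4, Hspa4l, Hsp90aa1 and Stip1 below the control mean in all 4 overexpression libraries. Overexpression library 1 is below it for 24 of the 37 genes, library 2 for 16 and libraries 3 and 4 for 11 each. Control library 4 is below it for 30.

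The libraries differed in the chaperone genes as a whole as well as in single genes. Over the 37 tested genes the median log2 ratio to the control mean was -0.04 in overexpression library 1, 0.03 in library 2 and 0.12 in libraries 3 and 4. In the control libraries it ran from -0.07 in library 4, which held the lowest level of 13 genes, to 0.06 in library 3. Without overexpression library 1, 9 of the genes were higher and 4 lower, where 18.7% of all tested genes were higher and 16.9% lower. Hsph1, Hsp90ab1, Ahsa1 and Cct8 were then called higher in addition to the 5, and Dnaja1 and Tcp1 were no longer called. The part of that library's state in these differences was not tested.

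Levels can be compared between genes only per length, and here CPM was divided by kilobases of exon in GENCODE M21. In control cells Hsp90ab1 was highest at 2080 CPM per kb, followed by Ptges3 at 775, Hspd1 at 728, Hsp90aa1 at 536, Cct2 at 509 and Hspa8 at 413 CPM per kb. With overexpression Hsp90aa1 stood at 391 CPM per kb, below Cct2 at 543 and Hspa8 at 501 CPM per kb. Among CCT subunits, which enter the ring in equal number, control levels ranged from 53.2 CPM per kb for Cct3 to 509 CPM per kb for Cct2, and the same order of these extremes held with overexpression (56.1 and 543 CPM per kb). The lowest levels among tested genes were those of Stub1 (0.635 CPM per kb), Dnajb4 (3.16), Cdc37 (6.44) and Hsf2 (8.45 CPM per kb). The exon length counts every annotated exon, so genes with long alternative exons, such as Cdc37 with 8194 bases, come out low.

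**Figure D4:**
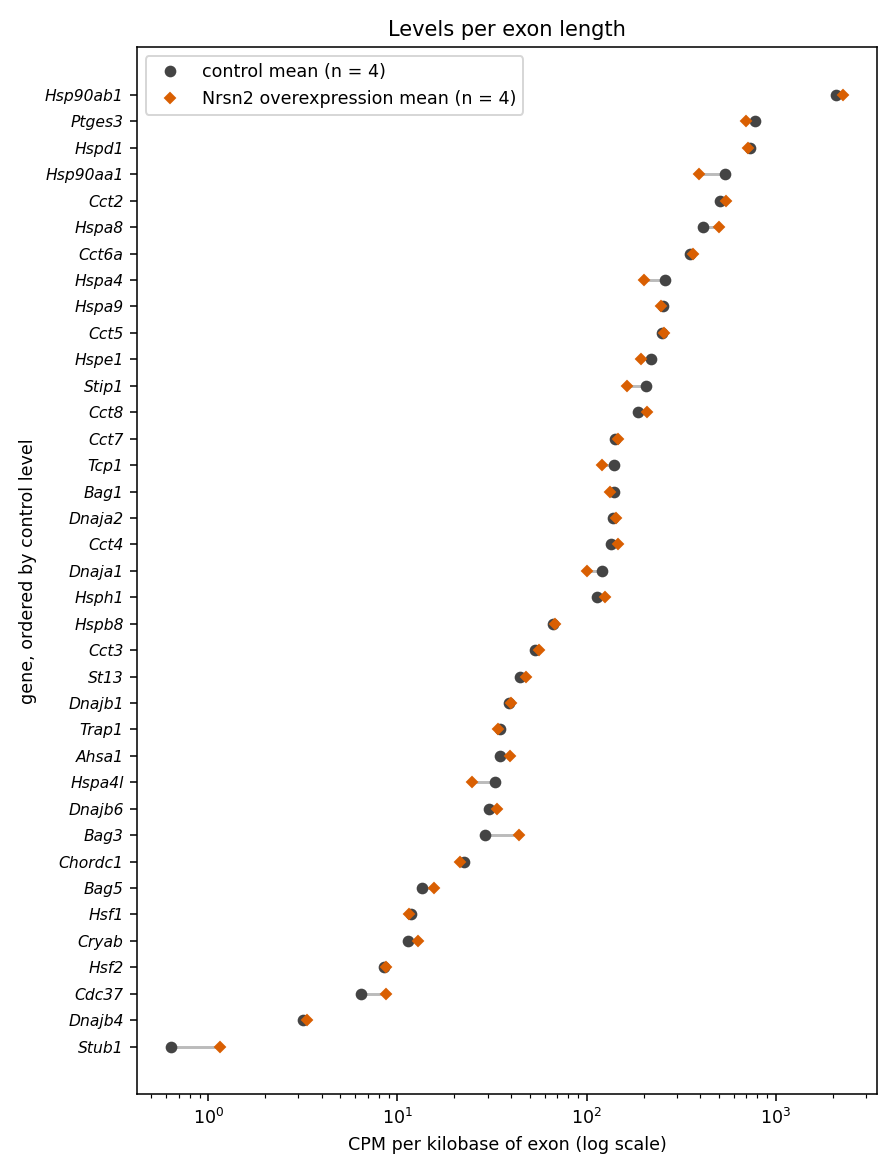
Mean CPM per kilobase of exon (log scale, horizontal axis) in control (grey circles) and overexpression libraries (orange diamonds) for the 37 tested genes, ordered by the control level. Differences between genes, from 0.635 to 2080 CPM per kb in control, far exceed those between the groups.

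Genes that work beside these chaperones were described in 7 further lists with 118 symbols, of which 105 were tested. Over all lists 29 were higher and 17 lower (27.6% and 16.2%, beside 18.6% and 16.8% of all tested genes), with a median log2 fold change of 0.07. The number lower was 11 without control library 1 or 3 and 9 without overexpression library 2. Among 9 tested regulators of heat shock factors and further heat shock targets, 4 were higher and 0 lower by edgeR and DESeq2. At an unadjusted p under 0.05 the counts were also 4 higher and 0 lower, and the median was 0.31. The share of all genes at an unadjusted p was not computed. That median is the value of Serpinh1, which had only 7 to 20 counts per library (0.31 ± 0.34 SE, edgeR adjusted p = 0.511). Ubb, which encodes ubiquitin as a chain of repeats, rose from 176 ± 33.0 to 409 ± 7.60 CPM (SD, n = 4 each; log2 fold change 1.22 ± 0.10). Zfand2a, an arsenite- and heat-inducible proteasome regulator (0.47 ± 0.07), and Hsbp1, which binds the trimer domain of HSF1 (0.20 ± 0.07), also rose. How reads from such repeats were counted is not given in the sources used here, so the value of Ubb is uncertain.

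Of 23 tested co-chaperones and adaptors of HSP90 outside the main set, 10 were higher and 6 lower (43.5% and 26.1%, beside 18.6% and 16.8% of all tested genes; median 0.13). Ppp5c, a phosphatase bound to HSP90 (log2 fold change 0.49 ± 0.07), Telo2 (0.46 ± 0.10) and Rpap3 (0.38 ± 0.07), which belong to complexes that assemble PIKK kinases and RNA polymerase II with HSP90, rose, and Ahsa2, a relative of Ahsa1, fell (-0.32 ± 0.08). The number lower was 2 without control library 1 or 3, 1 without overexpression library 2 and 3 without overexpression library 3, and the number higher was 6 with offsets for GC content and length.

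Of 15 tested relatives and regulators of HSP70, 4 were higher and 5 lower (26.7% and 33.3%, beside the same 18.6% and 16.8%; median -0.09). Sgtb, a TPR co-chaperone found mainly in neurons, fell from 128 ± 11.1 to 81.4 ± 4.04 CPM (-0.65 ± 0.07), while its relative Sgta rose from 33.7 ± 3.67 to 49.5 ± 7.28 CPM (0.55 ± 0.10). Hikeshi, which carries HSP70 into the nucleus, fell (-0.39 ± 0.06), and Bag6, which guards membrane proteins before insertion, rose (0.35 ± 0.07). The number higher was 2 without control library 4, and 2 with offsets for GC content and length.

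Of 28 other tested J-proteins, 6 were higher and 4 lower (21.4% and 14.3%, close to the 18.6% and 16.8% of all tested genes; median 0.06). Dnajb14 (0.52 ± 0.10), a J-protein anchored in the ER membrane, Dnajc8 (0.44 ± 0.08), a splicing-associated protein, and Dnajc11 (0.42 ± 0.08), of the mitochondrial cristae complex, rose, and Dnajc21, which acts in ribosome maturation, fell from 426 ± 26.6 to 310 ± 24.6 CPM (-0.46 ± 0.07). The number lower was 2 without overexpression library 4. Prefoldin, which hands actin and tubulin to CCT, was in a list with tubulin cofactors. In it 4 of 16 were higher and 0 lower by edgeR (25% and 0%, beside the same 18.6% and 16.8%) and by DESeq2. At an unadjusted p under 0.05, 6 were higher and 0 lower. The share of all genes at an unadjusted p was not computed and is at least as large as that at an adjusted p.

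In that list the prefoldin subunits Pfdn5 (0.41 ± 0.07) and Pfdn6 (0.42 ± 0.11), the prefoldin-like Pdrg1 (0.44 ± 0.07) and the tubulin cofactor Tbcb (0.35 ± 0.11) rose. Among 12 mitochondrial proteases and the disaggregase, 1 was higher and 2 lower (8.33% and 16.7%, beside 18.6% and 16.8% of all tested genes). Clpp rose (0.52 ± 0.10), and Oma1 (-0.49 ± 0.12) and Yme1l1 (-0.22 ± 0.07) fell. The number higher there was 2 without control library 4, without overexpression library 2 and with offsets for GC content and length, and the number lower was 1 without control library 3, without overexpression library 2 and with those offsets. Of 7 other small heat shock proteins 2 were tested and 0 were called by edgeR or DESeq2, also at an unadjusted p under 0.05; 1 of these was lower without overexpression library 1 or with the offsets.

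Across all genes the fold change moved with transcript length and base composition. Its median was 0.14 (log2) in the decile of shortest genes and -0.05 in that of the longest. By GC content it ran from -0.10 at the low end to 0.11 at the high end. When offsets for both were fitted, 7 chaperone genes were higher and 8 lower, where 16.8% and 19.6% of all genes were. The 8 genes called in every alternative stayed called, with log2 fold changes of 0.75 for Stub1, 0.48 for Bag3, 0.39 for Cdc37, 0.28 for Hspa8, -0.31 for Hspa4l, -0.37 for Hspa4, -0.43 for Hsp90aa1 and -0.46 for Stip1. Bag5 (0.12, edgeR adjusted p = 0.234), Dnaja1 (-0.18, 0.136) and Tcp1 (-0.12, 0.185) lost their calls. Cct8, St13 and Hsf2 became higher and Hspe1, Bag1, Ptges3 and Trap1 lower, with values from -0.25 to 0.20. Of the named genes in the further lists, Pfdn6 (0.25), Tbcb (0.19), Hsbp1 (0.10) and Yme1l1 (-0.12) lost their calls with the offsets.

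**Figure D5:**
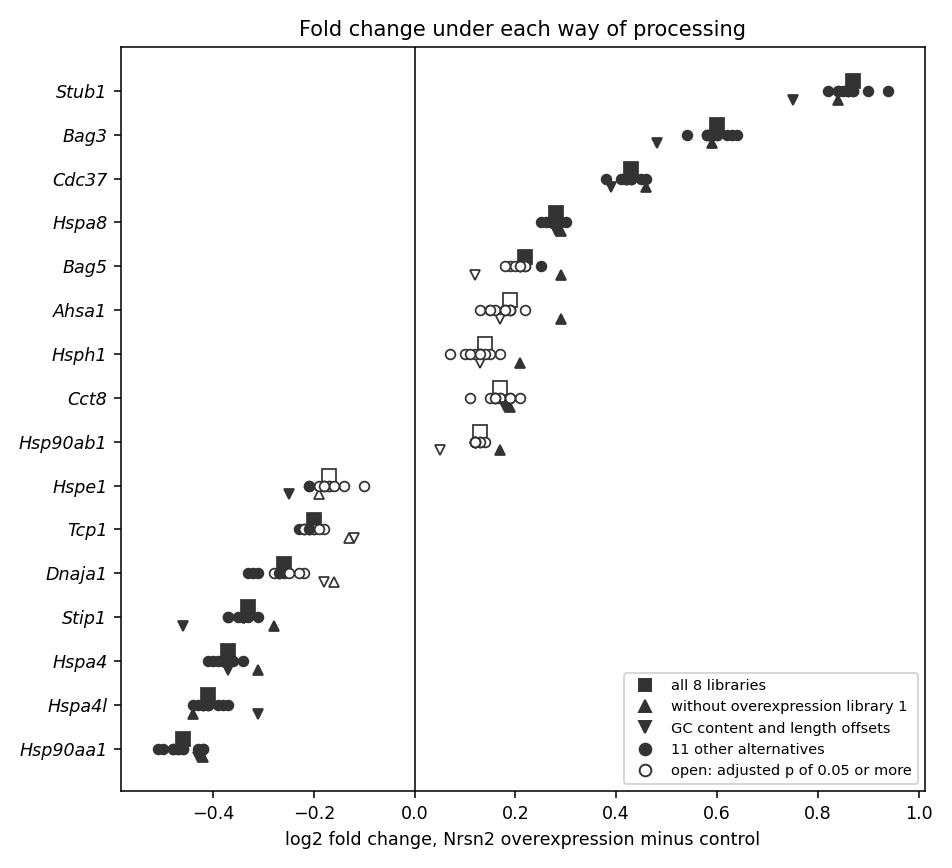
Log2 fold change of 16 genes (rows) under 14 ways of processing, with filled symbols for an edgeR or DESeq2 adjusted p under 0.05 and open symbols for the rest. Stub1, Bag3, Cdc37, Hspa8, Stip1, Hspa4, Hspa4l and Hsp90aa1 are filled throughout, while Ahsa1, Hsph1 and Hsp90ab1 are filled only without overexpression library 1.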

How the data were processed

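RNA from 8 N2a libraries, 4 per group, was made into polyA libraries with a TruSeq V2 kit and sequenced single-end, per the labels' protocols; this kit does not mark strand. Tools listed in the submitters' processing notes, without their roles, are TopHat2 2.1.1 and HTSeq 2.01 beside cutadapt 2.10 and DESeq2 1.36.0; the build listed is GRCm39. Neither the annotation release nor the treatment of reads with several matches is given in the sources used here. The authors deposited 1 table with raw read counts per gene, normalized counts (a signal scaled by DESeq2, per the file headers), log2 fold changes with standard errors, Wald scores and p-values with adjusted p-values. Of its 55414 rows, 49164 held values and 6250 did not.

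Counts were tested in R 4.3.3 with edgeR 4.0.16 (TMM factors, filterByExpr with a minimum count of 10, quasi-likelihood F test, Benjamini-Hochberg over 15187 genes, threshold 0.05). The fit was first tested on simulated data. Ratios were compared with an exact permutation test of log2 values. Totals of 15347255 to 21395096 counts set the precision. Alternatives were DESeq2 size factors, no low-count filter, a replicate block, offsets for GC content and length, DESeq2 1.42.0 and leaving out each library. Length, GC content and shared 50-base stretches came from GENCODE M21 (GRCm38), matched by gene ID; 99.8% of tested genes had a length. Promoters came from RefSeq GRCm38.p6.

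The 40 members and the 7 further lists were chosen with earlier results of these data known. Every member is named; values in every library are given for called members, Hspa1a, Hspa1b and Hsf1. Other members shown by library (Hsph1, Hsp90ab1, Ahsa1) were chosen after their values were seen, because leaving out 1 library changed their call. From each further list up to 4 called genes with the smallest p are named; some items are not reported here.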

Additional observations from a re-analysis of the deposited data

Results flagged for a closer look

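For 6 of the 74 gene and group combinations examined, 1 library lay farther from the other 3 than Dixon's 95% critical value for 4 samples allows; chance gives about 1 in 20. In overexpression library 1, Hsp90ab1 was at 6250 CPM, beside 7010 to 7080 CPM in the other 3. In the same library Ahsa1 was at 134 CPM, beside 183 to 188 CPM. Tcp1 was at 521 CPM there, beside 635 to 646 CPM. Cct7 was at 850 CPM there, beside 1020 to 1050 CPM. In control library 4, Cct2 was at 1220 CPM, beside 1320 to 1340 CPM in the other controls. Hsf1 was at 85.7 CPM in that library, beside 83.1 to 83.5 CPM, a narrow spread in which a small gap is enough. That 4 of the 6 fall in overexpression library 1 was seen after the fact and was not tested.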

How the results depend on the processing

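The number of chaperone genes called higher was 4 to 9 and the number lower 4 to 7 over the leave-one-out fits, with 9 higher without overexpression library 1. In the further lists these ranges were 23 to 29 higher and 9 to 17 lower. The counts over all genes moved too, from 2461 to 2898 higher and from 2078 to 2613 lower, of 15431 to 15573 tested. DESeq2 called 4 chaperone genes higher and 6 lower, and the fit without a low-count filter and that with DESeq2 size factors also gave 4 and 6. Over all genes DESeq2 called 2550 higher and 2360 lower of 18780. The fit without a filter called 2954 and 2469 of 35784, and that with DESeq2 size factors 2716 and 2633 of 15187. Same-numbered libraries did not deviate together (correlations from -0.10 to 0.06, beside -0.10 to 0.12 for differently numbered ones). The labels do not say whether libraries were made in pairs, and these values cannot decide it. With a replicate block 5 chaperone genes were higher and 4 lower, the calls of Dnaja1 (-0.27, edgeR adjusted p = 0.0682) and Tcp1 (-0.20, 0.0582) being lost. That fit called 2705 of all 15187 tested genes higher and 2392 lower. Of the 26 uncalled genes, 10 were called in at least 1 alternative and 16 in none of the 13, and 0 called genes reversed. The log2 difference in the Hsp90aa1 to Hsp90ab1 ratio ranged from -0.64 to -0.53 and that in the Hspe1 to Hspd1 ratio from -0.20 to -0.08 when 1 library was left out. The ratio of inducible to constitutive HSP70 was not run, since libraries at 0 give no log value. The cause of these changes was not tested. Depth limits Hspa1a, Hspa1b, Hspb1 and, with at least 23 counts, Stub1.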
